A study of Arabidopsis thaliana with 13 samples.

Results

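PRK, RCA and SBPASE are nuclear genes for 3 proteins of the Calvin cycle, and each was read by 1 of the 38408 probe sets on the array. They were chosen by name, through the probe annotation (PRK is AT1G32060, RCA is AT2G39730 and SBPASE is AT3G55800), with earlier results of these data known. Their ranks and p-values are therefore not those of genes picked blindly. All 3 passed the filter on low signal, among 10983 genes tested. The material was cotyledons of Arabidopsis thaliana, accession Col-0, taken from 6-day-old seedlings that had grown under constant light at 22 °C in liquid MS. The induction medium held 2,4-D (an auxin, 1.25 mg/L), kinetin (a cytokinin, 0.25 mg/L) and bikinin (an inhibitor of GSK3-like kinases, 10 µM). This culture, known as VISUAL, leads leaf cells to become xylem and phloem cells. RNA was taken every 6 h from 0 to 72 h, with 1 array for each of the 13 times. No culture without the inducers is among the samples used here, so time in culture and the medium cannot be told apart.

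The Calvin cycle fixes carbon dioxide in the chloroplast stroma with the energy and reducing power that light provides. Rubisco joins carbon dioxide to ribulose bisphosphate. Rubisco activase, the product of RCA, removes inhibitory sugar phosphates from Rubisco so that it stays active. The later part of the cycle rebuilds the acceptor. There sedoheptulose bisphosphatase, the product of SBPASE, removes a phosphate from sedoheptulose bisphosphate, a step that is irreversible in the plant. Phosphoribulokinase, the product of PRK, makes ribulose bisphosphate and so closes the cycle. In Arabidopsis, thioredoxin passes a light signal to phosphoribulokinase, to sedoheptulose bisphosphatase and to the larger form of Rubisco activase, and mature leaves express all 3 genes strongly.

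No time had a replicate, so neighbouring times were joined in windows of 4 arrays each, called early (6, 12, 18 and 24 h), middle (30, 36, 42 and 48 h) and late (54, 60, 66 and 72 h), beside the lone 0 h array. An SD over a window therefore holds change within it. Nothing says that neighbouring arrays came from separate cultures, so a p-value here speaks of array-to-array spread alone, which may be technical. The median deposited signal was 5.15 to 5.35 on the first 5 arrays, up to 24 h, and 5.82 to 5.99 on the 8 that followed. Each value is given as log2 signal above the median of its own array. The number of arrays limits the precision. A difference that crosses from 24 to 30 h cannot be told apart from that change in array medians. A lower signal in this tissue can come from fewer green cells or from less RNA per cell, which cannot be told apart here.

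Signals of PRK, RCA and SBPASE were high at 0 h and low on the last day, on either scaling. RCA stood at 6.49 above the array median at 0 h, higher than 98.7% of the probe sets on that array. In the early window it was 6.07, 5.79, 5.56 and 4.68 at 6, 12, 18 and 24 h. It was 3.45, 3.54, 3.38 and 3.11 from 30 to 48 h and 2.56, 2.93, 3.21 and 2.99 from 54 to 72 h. All 8 arrays of 30 to 72 h lay below all 5 arrays of 0 to 24 h, and the lowest point was 54 h, where RCA still exceeded 80.7% of probe sets.

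SBPASE began at 6.21, above 98.4% of probe sets. It read 5.49, 5.45, 4.83 and 3.70 at 6, 12, 18 and 24 h. From 30 to 48 h it read 2.91, 3.28, 2.99 and 2.40, and from 54 to 72 h 2.24, 2.49, 2.37 and 2.01. Its lowest array was the last, 72 h, above 74.0% of probe sets, and the arrays of the later set again lay below each array of the earlier set.

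PRK made the longest way through the ranks of the array. At 0 h it stood at 4.34, above 92.7% of probe sets, and at 6, 12, 18 and 24 h at 4.16, 4.06, 3.66 and 2.40. It was 1.31, 1.70, 1.12 and 0.66 from 30 to 48 h and 0.23, 0.65, 1.04 and 0.73 from 54 to 72 h. At 54 h PRK exceeded only 52.6% of probe sets, near the middle of the array. As for RCA and SBPASE, the 8 later arrays lay below the 5 earlier ones. Groups that did not overlap in this way were found for 22.4% of the 10983 genes tested.

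Quantile normalization, which gives all 13 arrays the same distribution, left the high arrays early and the low arrays late. RCA then read 11.70 at 0 h, 11.38, 11.25, 11.09 and 10.27 in the early window, 9.20, 9.22, 9.17 and 8.90 in the middle window, and 8.28, 8.56, 8.95 and 8.63 in the late window. Its low point stayed at 54 h.

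SBPASE read 11.49 at 0 h, then 10.85, 10.93, 10.38 and 9.32, then 8.65, 8.95, 8.76 and 8.15, and last 7.94, 8.12, 8.07 and 7.64. PRK read 9.81 at 0 h, then 9.60, 9.56, 9.22 and 8.04, then 6.97, 7.33, 6.79 and 6.32, and last 5.86, 6.28, 6.70 and 6.35. The low points again were 72 h for SBPASE and 54 h for PRK, and for both genes the 8 later arrays lay below the 5 earlier ones. The step from 18 to 24 h was -1.06 for SBPASE, -1.18 for PRK and -0.82 for RCA on this scale.

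**Figure D1:**
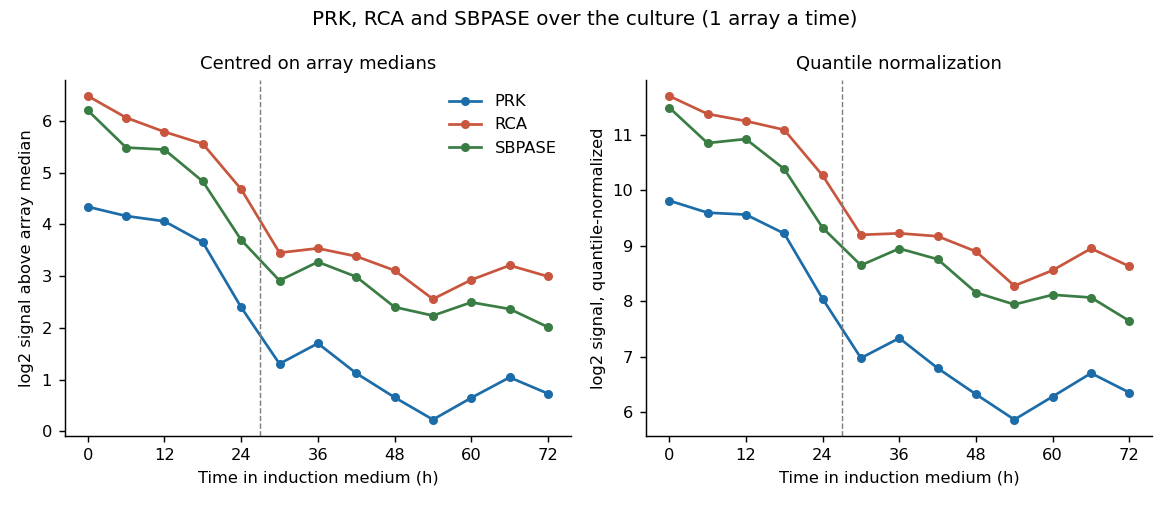
The log2 signal of PRK, RCA and SBPASE is plotted against hours in the induction medium, above each array's median on the left and after quantile normalization on the right. Each point is 1 array, the dashed line marks the change in array medians between 24 and 30 h, and on both scalings the 3 courses fall most between 18 and 30 h.

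The late window against 0 h asked how far the genes had moved by the third day. All 3 fell, SBPASE by 15.2-fold (log2 difference -3.93, SE 0.524, adjusted p = 7.87e-05), PRK by 12.8-fold (-3.68, SE 0.553, adjusted p = 0.000176) and RCA by 11.8-fold (-3.56, SE 0.387, adjusted p = 2.19e-05), in limma with Benjamini-Hochberg adjustment over all genes tested. Of all genes tested, 21.6% were called lower in this comparison, and the median difference over them was -0.21. Only 0.619%, 0.883% and 0.992% of genes had a difference as low as that of SBPASE, PRK and RCA. Here 0 h is 1 array, assumed to vary as arrays do within the windows. Under quantile normalization the log2 differences were -3.55, -3.52 and -3.10, and on the values as deposited -3.21, -2.96 and -2.84. The call was kept on each scaling, and the size of the fall depended on it.

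On the median-centred scale the 2 steps between 18 and 30 h held more of each gene's fall than any other neighbouring pair of steps. On the 18 h array PRK had covered 18.7% of its way from 0 h to the mean of the late window, RCA 26% and SBPASE 35.0%. On the 24 h array these shares were 52.8%, 50.6% and 63.8%, and on the 30 h array 82.5%, 85.1% and 83.8%. Interpolated between arrays, the midpoint between the 0 h value and the late mean was reached at 23.51 h for PRK, 23.85 h for RCA and 21.13 h for SBPASE. Over this and 4 other scalings the midpoints ranged from 22.59 to 23.93 h, 22.53 to 24.65 h and 19.97 to 21.77 h, and SBPASE came before both others on each scaling. With arrays 6 h apart this order has no replicate.

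The step from 18 to 24 h lies among arrays of like median. In it PRK fell by 1.26 on the log2 scale, SBPASE by 1.13 and RCA by 0.88, while the median gene fell by 0.06. For PRK and SBPASE this was the largest step of the course, and for RCA it came after the step from 24 to 30 h, where RCA fell by 1.23. In the 18 to 24 h step only 0.738% of genes fell as far as PRK, 1.03% as far as SBPASE and 2.49% as far as RCA. The next step, from 24 to 30 h, was -1.09 for PRK and -0.79 for SBPASE and crosses the change in array medians.

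**Figure D2:**
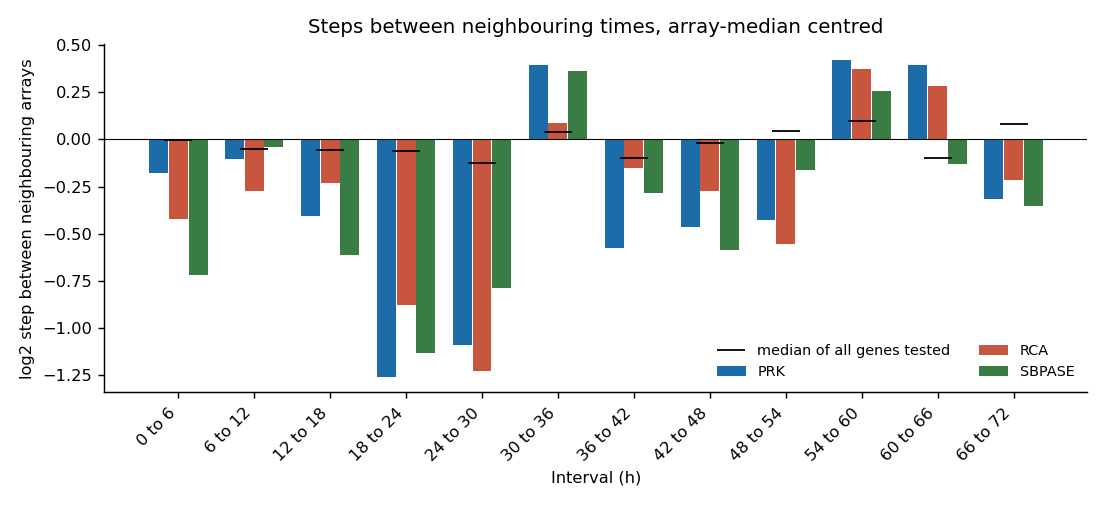
Bars give the log2 step between neighbouring arrays for PRK, RCA and SBPASE, centred on array medians, and black marks give the median step of all genes tested. The steps from 18 to 24 h and from 24 to 30 h are the 2 largest falls for each gene, and PRK rises from 54 to 60 h and from 60 to 66 h.

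Because that step was seen in the course, a test of it was added afterwards, with the 24 h array as a group of its own against the arrays of 6 to 18 h. This comparison restates the drop that prompted it and has a single array on one side, so it adds a size and not independent support. In the fit of all 13 arrays the 3 genes were called lower at 24 h, PRK by 2.95-fold (adjusted p = 0.036), SBPASE by 2.94-fold (adjusted p = 0.0197) and RCA by 2.18-fold (adjusted p = 0.0269), in limma. The background was 1.13% of genes called lower. The spread in this fit comes largely from the other windows, and it gave the calls. Fitted on the 5 arrays up to 24 h by themselves, the 3 differences were the same and none passed (adjusted p = 0.162, 0.201 and 0.208 for PRK, SBPASE and RCA), nor did any other gene, against 1335 genes at an unadjusted p under 0.05. Calls also ended without the 12 h array for all 3 genes, without the 6 h array for PRK and RCA, and without the 42, 60 or 72 h array for PRK. That of RCA ended under quantile normalization (-0.97) and on the values as deposited (-0.999).

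Before that step the values were lower at 18 h than at 0 h in all 3 genes, but no slope passed its test, and slopes were not compared between genes. From 0 to 6 h the steps were -0.72 for SBPASE, -0.42 for RCA and -0.18 for PRK on the log2 scale. A straight line through the 4 arrays of 0 to 18 h, added after the course was seen, gave changes of -1.25 for SBPASE, -0.92 for RCA and -0.65 for PRK, none of which passed (limma adjusted p = 0.0673, 0.0546 and 0.107), with 0.428% of genes called lower. Over 0 to 24 h the fitted changes were -2.27 for SBPASE (adjusted p = 0.027), -1.65 for RCA (adjusted p = 0.0232) and -1.76 for PRK (adjusted p = 0.0683), so SBPASE and RCA were called, among 4.02% of genes called lower. Both calls ended when any single array of the 5 was left out. Set as a window against the 0 h array, the early level was -1.34 for SBPASE, -0.96 for RCA and -0.77 for PRK, and none passed (adjusted p = 0.082, 0.0905 and 0.338), with 5.49% of genes called lower. SBPASE did pass in 4 of 26 other settings and RCA in 1, all given with the dependence on processing.

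What the second day changed was asked by setting the middle window against the early one, across the change in array medians, and all 3 genes fell. PRK went from 3.57 ± 0.81 (SD, n = 4) to 1.2 ± 0.43 (SD, n = 4), RCA from 5.52 ± 0.60 (SD, n = 4) to 3.37 ± 0.18 (SD, n = 4) and SBPASE from 4.87 ± 0.83 (SD, n = 4) to 2.90 ± 0.36 (SD, n = 4). The windows did not overlap for any of the 3, which was so in this direction for 35.5% of all genes tested. On the values as deposited SBPASE did overlap, with 9.12 at 36 h above 9.05 at 24 h. The log2 differences were -2.37 (95% interval -3.13 to -1.61), -2.15 (-2.69 to -1.62) and -1.97 (-2.69 to -1.25), with adjusted p of 0.000279, 8.69e-05 and 0.00052 in limma. In all, 8.31% of genes were called lower, and 0.246%, 0.446% and 0.719% of genes had differences as low as those of PRK, RCA and SBPASE. The median over all genes was -0.25. Which direction held more calls depended on scaling, with 561 genes higher and 913 lower here against 1821 higher and 151 lower on the values as deposited.

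The 5 measured reference genes, housekeeping genes often used to scale plant RNA, bear on the size of these falls. All 5 differences were below 0 in the same comparison, with a median of -0.41, although none reached the log2 cutoff of 1. An adjusted p under 0.05 in limma was found for 4 of them. These were GAPC2 (-0.73, adjusted p = 9.94e-05), AT2G28390 (-0.55, adjusted p = 0.000635), AT4G26410 (-0.41, adjusted p = 0.00519) and AT4G34270 (-0.22, adjusted p = 0.0163). Centred on the mean of these genes in place of the array median, PRK, RCA and SBPASE differed by -1.96, -1.74 and -1.56, and each was still called (adjusted p = 0.000338, 9.96e-05 and 0.000839). Quantile normalization gave -2.25, -1.88 and -1.75. In 26 other settings, many of which could not move the differences, all 3 calls were kept. The ranges were -2.76 to -1.70, -2.43 to -1.48 and -2.36 to -1.30. The upper ends came from the values as deposited and the lower ends from leaving the 24 h array, the lowest of the early window, out of it.

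The late against the middle window asked whether the fall went on, and both windows lie after the change in array medians. No gene of the 3 passed: the differences were -0.62 for SBPASE (95% interval -1.34 to 0.10, adjusted p = 0.253), -0.54 for PRK (-1.30 to 0.23, adjusted p = 0.36) and -0.45 for RCA (-0.98 to 0.08, adjusted p = 0.262). The background was 1.47% of genes called lower in limma, and 0 of the 3 had an unadjusted p under 0.05. The windows overlapped for all 3 genes, whereas 8.61% of genes had every late array below every middle one. With a line through the 8 arrays of 30 to 72 h, SBPASE fell by 1.04 over the 42 h (adjusted p = 0.00556), among 5.89% of genes called lower. PRK and RCA had fitted changes of -0.77 and -0.57 and did not pass (adjusted p = 0.137 and 0.113). The SBPASE call sat at the cutoff of 1 and ended without the 36 h (-0.86), 42 h (-0.99) or 72 h array (-0.99).

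The course of PRK and RCA on the third day was not a straight line. Both were lowest at 54 h and higher at 60 and 66 h: from 54 to 66 h PRK was up by 0.82 and RCA by 0.65 on the log2 scale, against 0.13 for SBPASE and a median of -0.003 over all genes. In that span 1.05% of genes went up as much as PRK, 2.17% as much as RCA and 26.3% as much as SBPASE. These are single arrays at each time, so no test was made. A line ending at the low point, over 30 to 54 h and chosen after the course was seen, had slopes of -2.24 for PRK, -1.55 for RCA and -1.56 for SBPASE per 42 h. That end point is the lowest array of PRK and RCA, so their steeper slopes follow from the choice and are a description only.

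RCA is a known output of the circadian clock in Arabidopsis, so a 24 h rhythm was fitted beside a linear and a quadratic trend over the 12 arrays of 6 to 72 h. No member was called. The amplitudes were 0.45 for PRK, 0.38 for RCA and 0.37 for SBPASE, under the cutoff of 0.5, with adjusted p = 0.0623, 0.0623 and 0.0705 in limma. All 3 had an unadjusted p under 0.05, among 1346 of the 10983 genes tested in this fit. Fitted peaks lay at 16.89, 18.32 and 15.38 h, counted from the start of culture in continuous light. Of all genes, 0.0728% were called, 8 in number, and with a term for the sets of arrays 0 were, against 1420 at an unadjusted p under 0.05.

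The log2 ratio of 2 of the genes on the same array does not change when arrays are centred, although it does under quantile normalization. The log2 ratio of PRK to SBPASE was -1.30 ± 0.09 (SD, n = 4) in the early window and -1.70 ± 0.13 (SD, n = 4) in the middle window, with no overlap. This change of -0.40 had the smallest p that 4 against 4 arrays can give (two-sided exact permutation test, p = 0.0286, adjusted p = 0.171 over the 6 ratio tests). It is reported as not passing. Over 6 tests a single ratio at that smallest p cannot reach an adjusted value under 0.05, so the missed threshold decides nothing about this ratio. In the late window the ratio spread from -2.01 to -1.29, lowest at 54 h and highest at 72 h. At 0 h, on 1 array, it was -1.87, below every array of the early window. Under quantile normalization the change from early to middle was -0.51 (adjusted p = 0.171).

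The ratio of PRK to RCA went from -1.95 ± 0.23 (SD, n = 4) to -2.18 ± 0.26 (SD, n = 4) and -2.26 ± 0.07 (SD, n = 4) in the early, middle and late windows. The ratio of RCA to SBPASE went from 0.66 ± 0.27 (SD, n = 4) to 0.48 ± 0.19 (SD, n = 4) and 0.64 ± 0.32 (SD, n = 4). Under quantile normalization the change of PRK to RCA from the early to the middle window was -0.38 (exact permutation adjusted p = 0.257), against -0.22 without it. Without it, none of the changes of these 2 ratios exceeded the spread between arrays (exact permutation adjusted p between 0.557 and 0.6). Levels of different probe sets are not comparable, so only the changes of these ratios are read.

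**Figure D3:**
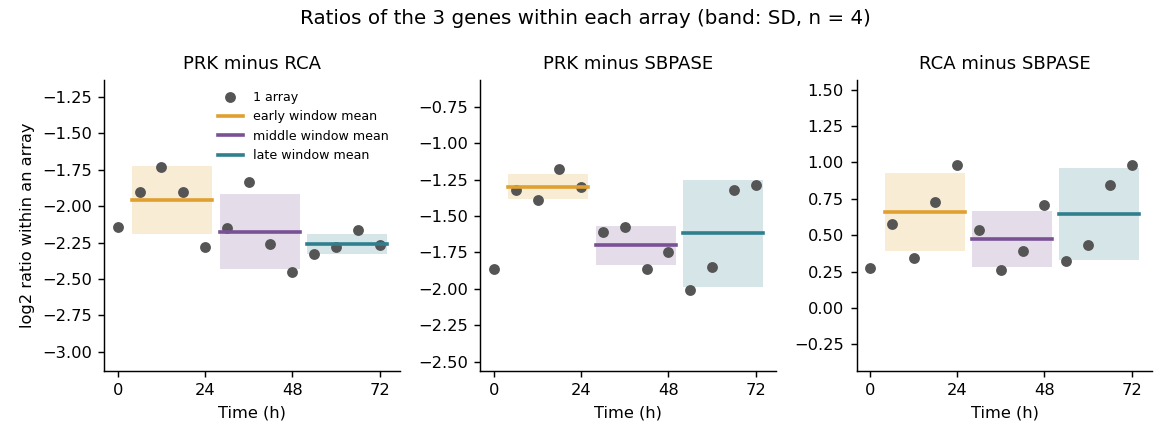
Points give the log2 ratio of 2 of the genes on each array over time. Coloured lines and bands give window means and SD (n = 4 arrays), and the PRK to SBPASE ratio is lower in the middle window (-1.70) than in the early window (-1.30) with no overlap.

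The genes with the most similar courses were looked for among all 10983 tested, by the root mean square difference of the log2 courses over 13 arrays, each less its own mean. The measure is a description: all courses share the same arrays. Nearest to PRK was RCA, at 0.211, followed by AT2G21530 (0.246) and SBPASE (0.269). Nearest to RCA were PRK, LHCB4.1, which encodes an antenna protein of photosystem II, at 0.222, and AT2G36145 (0.230). Nearest to SBPASE were AT5G38520 (0.172), AT1G65230 (0.188) and AT5G51110 (0.196), with RCA in 8th and PRK in 11th place. Under quantile normalization RCA was second for PRK, while PRK was 16th for RCA, whose nearest gene was then THX, encoding thioredoxin X of the chloroplast (0.187). AT1G65230 and AT5G51110 were among the nearest 3 of SBPASE on both scalings. Their own differences between the middle and early windows were -1.73 and -1.74, against -1.97 for SBPASE, and that of AT5G38520 was -2.10. AT2G21530, near PRK, differed by -2.01, and AT2G36145, near RCA, by -1.89.

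Other genes of the pathway were sparsely named by the annotation: 5 of 25 on the Calvin cycle list, the members included. Genes that the annotation gives only by identifier are printed by it. In the middle against the early window 4 of these 5 fell and 0 rose, with a median of -1.97. AT1G56190 fell 2.49-fold (adjusted p = 0.000267), and AT5G64380 did not pass, at -0.68 (adjusted p = 0.0538). The call of AT1G56190 ended on the values as deposited (-0.64) and when centred on reference genes (-0.90). In the late window against 0 h all 5 fell, AT1G56190 by 2.49 and AT5G64380 by 2.33 on the log2 scale, where 21.6% of all genes were called lower. AT5G64380 was also the 1 called in the early window against 0 h (-1.66, limma adjusted p = 0.0188), among 5.49% of all genes called lower. In the late against the middle window 0 of 5 were called, with 1 at an unadjusted p under 0.05, AT1G56190 (-0.67).

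The large subunit of Rubisco is encoded in the chloroplast genome by rbcL, a gene added to the comparison after coverage was known. Its signal was 8.28 at 0 h, between 8.04 and 8.30 in the early window, 7.12 to 7.40 in the middle window and 7.04 to 7.29 in the late window. The difference in the middle window was -0.90 (adjusted p = 3.43e-05), short of the cutoff of 1, and against 0 h it fell by 1.1 in the late window (adjusted p = 3.21e-05). That call was lost on each of the 4 other scalings of rbcL, at -0.40 under quantile normalization, -0.38 as deposited, -0.78 on reference genes and -0.84 on named probe sets. From 18 to 24 h it went from 8.10 to 8.04. The part of the early window in this difference was -0.11 (adjusted p = 0.576).

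Genes for Rubisco assembly, 4 measured of 8, fell too: 3 were called lower in the middle against the early window, with a median of -1.22, against 8.31% of all genes. AT5G28500 fell 2.69-fold, AT3G04550 2.50-fold and AT3G47650 2.17-fold (adjusted p = 0.000731, 0.0318 and 0.000696), while Cpn60beta2, a subunit of the chaperonin that folds Rubisco, was at -0.77 (adjusted p = 0.0526). Against 0 h all 4 were lower in the late window, where 21.6% of all genes were called lower. The calls of AT5G28500 (-0.75), AT3G04550 (-0.65) and AT3G47650 (-0.44) in the middle window ended on the values as deposited. Centred on reference genes, those of AT3G04550 (-0.90) and AT3G47650 (-0.70) ended. On named probe sets AT3G04550 (-1.13) and AT3G47650 (-0.93) were not called either, and AT3G47650 (-0.69) was not under quantile normalization. Without the 6 h array AT3G04550 (-0.87) and AT3G47650 (-0.94) lost the call, and AT3G04550 lost it without the 12 h (-1.12), 42 h (-1.1) or 48 h (-1.22) array. Against 0 h the call of AT3G04550 ended as deposited (-1.34), on named probe sets (-1.80) and without the 60 h (-2.03) or 66 h array (-1.94).

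Plastid thioredoxins pass electrons from light to enzymes such as SBPase and PRK. Of 8 on the list 3 were measured and all 3 fell in the middle window, where 8.31% of all genes were called lower. ATHM2, a thioredoxin m, fell by 2.56-fold and TRXF2, a thioredoxin f, by 2.39-fold. AT2G04700, listed as FTRB and not itself a thioredoxin, fell by 2.65-fold (limma adjusted p between 7.88e-05 and 0.000387 for the 3). All 3 calls ended on the values as deposited (AT2G04700 -0.74, ATHM2 -0.68, TRXF2 -0.59) and when centred on reference genes (AT2G04700 -0.99, ATHM2 -0.94, TRXF2 -0.84). TRXF2 had already fallen by 1.31 on the log2 scale in the early window, while ATHM2 and AT2G04700 were at -0.11 and -0.09 there.

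Photorespiration recovers the carbon that Rubisco loses when it takes oxygen, and 3 of 13 listed genes were measured. All 3 fell in the middle window, AT1G11860 by 3.55-fold, HPR, encoding the peroxisomal hydroxypyruvate reductase, by 3.28-fold and AT1G80380 by 2.41-fold (limma adjusted p between 7.88e-05 and 0.000877). The share of all genes called lower there was 8.31%. The call of AT1G80380 ended as deposited (-0.60) and on reference genes (-0.86). On the list for starch and sucrose synthesis 2 of 11 genes were measured. APL3, which encodes a subunit of the enzyme that makes ADP-glucose for starch, rose by 4.04 on the log2 scale in the early window, where 6.3% of genes were called higher, and fell by 1.67 in the middle window, ending 1.32 above 0 h. Its middle call ended as deposited (APL3 -0.999), and its call against 0 h ended without any one of the 18, 36, 42, 54, 60 or 66 h arrays (APL3 1.19 to 1.34). ATSPS4F, a sucrose phosphate synthase gene, did not reach the cutoff in any of the 4 window comparisons (-0.50 in the middle window). On the values as deposited ATSPS4F was called higher in the late window than at 0 h (1.31, adjusted p = 0.000784, against 0.58 when centred). On that scaling 3029 genes were called higher there (1374 when centred). None of the 7 listed regulators of photosynthesis genes was named on the array.

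**Figure D4:**
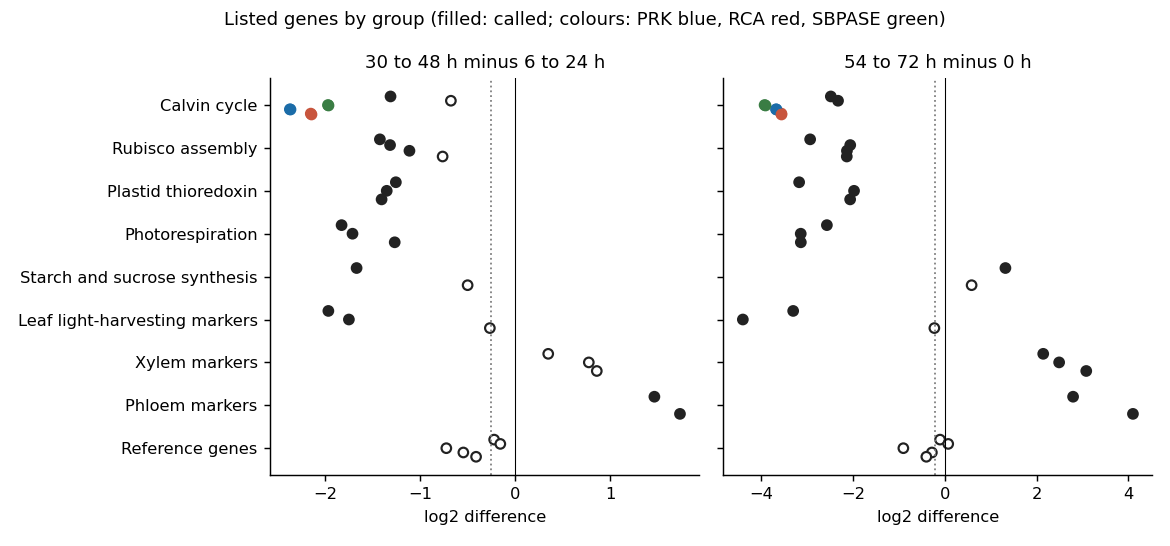
Each point is the log2 difference of 1 listed gene, for the middle against the early window on the left and the late window against 0 h on the right. Filled points were called and open points were not, dotted lines mark the median of all genes tested, and PRK, RCA and SBPASE lie at -2.37, -2.15 and -1.97 on the left.

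Light-harvesting genes, which mark green leaf tissue, fell in the same window. Of 15 such genes 3 were measured, and 2 fell, among 8.31% of all genes called lower. These were LHCB4.1, by 3.91-fold, and LHCB4.2, by 3.37-fold, while LHCB4.3 was at -0.27 (limma adjusted p = 0.226). The summed level of the 3, on the log2 scale, was 5.98 at 0 h, 4.49 to 5.38 in the early window, 2.82 to 3.4 in the middle window and 2.53 to 2.79 in the late window. A list of 12 nuclear genes of photosystems, antenna and the NDH complex was chosen by symbol after coverage was known. It holds LHCB4.1, LHCB4.2 and LHCB4.3 again. Of these 12 genes 10 fell in the middle window with a median of -1.73. In the early window against 0 h 5 of the 12 fell, with a median of -1.55. The shares of all genes called lower were 8.31% and 5.49%.

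The measured markers of the cells that the culture forms were higher in the late window than at 0 h. Of 15 xylem markers 3 were measured, IRX15, IRX15-L and GUT2, which act in xylan synthesis of secondary walls, and all 3 were higher in the late window than at 0 h, by 2.15, 2.49 and 3.08 on the log2 scale, where 12.5% of genes were called higher. In the middle against the early window 0 of the 3 were called: IRX15 was at 0.345, IRX15-L at 0.772 and GUT2 at 0.856 (limma adjusted p = 0.478, 0.179 and 0.125). On the values as deposited IRX15-L (1.44) and GUT2 (1.53) were called there, among 1821 genes called higher on that scaling (561 when centred). From the middle to the late window IRX15 and IRX15-L rose (1.70 and 1.57), among 3.91% of genes called higher, and GUT2 did not pass (1.28, limma adjusted p = 0.0852). The summed level of the 3 xylem markers was 2.60 at 0 h, 2.05 to 4.06 in the early window, 3.21 to 4.90 in the middle window and 4.90 to 5.73 in the late window. Of 10 phloem markers OPS and CLE45 were measured, and from 0 h to the late window they rose by 2.8 and 4.1, with a summed level from -0.48 at 0 h to between 2.52 and 2.81 in the late window. Both were already called higher in the middle than in the early window (1.46 and 1.73), among 5.11% of genes. CLE45 was dim before 30 h, at -3.22 at 0 h and -2.73 to -2.49 from 6 to 24 h. These values lay below the 20th percentile of all centred signals, -2.36. With values floored there CLE45 rose by 3.25 against 0 h and by 1.455 in the middle window, and was still called. Its later arrays raised the mean by which the filter kept it. The part of xylem and phloem cells in the falls of PRK, RCA and SBPASE was not tested. Of the 5 procambium markers 0 were named. SPCH, which starts the stomatal lineage, fell by 3.09 from 0 h to the late window, and FMA, which ends it in guard cells, was at -0.77. The summed level of these 2 of 7 epidermis and guard cell markers was 2.98 at 0 h, 2.39 to 2.72 in the early window, 1.51 to 2.01 in the middle window and 1.47 to 1.67 in the late window. Of the senescence markers 2 of 6 were measured. In the early window SAG29 rose by 4.21 and SAG101 fell by 1.1 (adjusted p = 0.00302) against 0 h. In the middle window SAG29 fell by 3.22 while SAG101 was at 0.17 (adjusted p = 0.277). Their summed level was 1.45 at 0 h, 1.88 to 4.99 in the early window, 0.62 to 1.89 in the middle window and -0.14 to 0.58 in the late window, and its part in the members' values was not tested.

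Of the 12 protein-coding genes nearest to the members in the genome, up to 2 on each side, 4 were tested. LrgB, known as a plastid envelope transporter of glycolate and glycerate in photorespiration, lies near PRK and fell 4.15-fold in the middle window (adjusted p = 0.000343). The other 3 were between -0.44 and -0.19 and were not called, against 8.31% of all genes called lower.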

How the data were processed

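RNA from cultured cotyledons was measured on 13 arrays, 1 for each time. The deposited table holds log values, read as log2 from their range (the base is not given in the sources used here), and GCOS is named per the submitters' processing notes; summary and normalization are not given. Control probe sets are not marked in the table and stayed in the medians, and no column of the table was left unused. Of 38408 probe sets, 16722 were annotated to 1 gene, 759 to several and 20927 to none; only the first kind was named, and 16574 of these matched the TAIR10.1 annotation.

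Array medians differed by more than 0.5 (range 0.842), so values were centred on them. Dim probe sets (the lowest 30% by mean signal) were dropped and the brightest was kept for each gene, leaving 10983 genes. Windows were compared in limma 3.58.1 (R 4.3.3) with 1 mean per group over all 13 arrays, an intensity trend and Benjamini-Hochberg adjustment over all genes. A call needed a log2 difference of 1 or more with an adjusted p below 0.05 (an amplitude of 0.5 for the 24 h rhythm). Linear trends were fitted on either side of the change in array medians. Ratios were compared by exact permutation tests. The scripts were tested on simulated data, and Python 3.11.15 with matplotlib 3.10.9 drew the figures.

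The members and gene lists were chosen with earlier results of these data known. Named genes are the members, the 3 nearest courses to each, and in each list up to 4 called genes of largest difference in each direction and up to 3 of smallest difference. The 24 h comparison, the lines over 0 to 18 h and 30 to 54 h, rbcL, the photosystem list and the genome neighbours were added after the courses had been seen. Other scalings, filters, floors, weights, windows and left-out arrays were tried as alternatives. Promoter sequences were not used here.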

Additional observations from a re-analysis of the deposited data

How the results depend on the processing

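The calls of PRK, RCA and SBPASE in the late window against 0 h and in the middle window against the early one held in every setting tried, and their lack of a call in the late against the middle window did too. In that last comparison the lowest adjusted p in limma was 0.0335 for SBPASE and 0.0483 for RCA. No call followed because the differences, at most -0.78 and -0.545 in size, were short of the cutoff of 1. Over all comparisons 431 of 465 results for the 3 genes under another setting kept their direction and side of the threshold, 27 lost the call, 7 gained it and 0 changed sign. Many of these settings could not move the members' differences between windows. Each member has 1 probe set, and the filters, the floor and the variance options left its difference as it was. So did leaving out an array of a window outside the comparison. The tally is therefore no count of independent checks. The 24 h rhythm entered it as an amplitude, at 17 settings for each gene, and an amplitude cannot change sign. For the other genes recomputed, and only in the late window against 0 h and the middle window against the early one, 1267 of 1318 were kept, 39 lost a call, 5 gained one and 7 changed sign. The cause was not tested.

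On the values as deposited, 1821 genes were higher and 151 lower in the middle window (561 and 913 when centred), 3029 higher and 940 lower in the late window against 0 h (1374 and 2377), and 221 fell over 0 to 24 h (442). There LHCB4.3 (0.40), FMA (0.15) and ATSPS4F (0.17) changed sign in the middle window and LHCB4.3 in the late window (0.50). Centred on reference genes, 1135 were higher and 307 lower in the middle window, LHCB4.3 changed sign (0.15, and 0.10 in the late window), and SBPASE was called in the early window against 0 h (-1.335). Centred on named probe sets, 572 genes were lower in the middle window and LHCB4.3 was at 0.032 in the late window. With no filter on low signal 1697, 1079 and 5131 genes were lower in the middle against the early, the early against 0 h and the late against 0 h. With the lower 50% left out 299 and 1306 were lower in the latter 2. In these comparisons the counts of genes called higher changed less than the counts called lower. The number of genes tested changed too, and its part in these counts was not tested. SBPASE in the early window against 0 h was also called with array weights (-1.13) and without the first and last array of each window (-1.07). Without 1 array this difference ran from -1.55 to -0.95, and that of RCA from -1.14 to -0.68; the calls came without the 6 h array (-1.55 and -1.14). On the arrays of 0 to 24 h alone 287 genes were higher and 157 lower in it.

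In the 24 h comparison, the 0 to 24 h arrays alone gave -1.56, -1.12 and -1.555 for PRK, RCA and SBPASE with no call, and 0 genes higher and 0 lower in limma, against 1335 at an unadjusted p under 0.05. RCA was at -0.97 under quantile normalization and -0.999 as deposited. Without 1 array PRK ran from -1.715 to -1.46, RCA from -1.25 to -0.99 and SBPASE from -1.77 to -1.44, with 137 to 281 genes higher and 37 to 364 lower. Without 1 array, the lines over 0 to 24 h gave -2.28 to -0.865 for PRK, -1.79 to -1.22 for RCA and -2.42 to -1.665 for SBPASE, with 0 to 59 genes higher and 0 to 73 lower. The lines over 30 to 72 h gave -1.23 to -0.86 for SBPASE, -0.99 to -0.48 for PRK and -0.72 to -0.46 for RCA, and those ended at 54 h, the low point of PRK and RCA, gave -2.24, -1.55 and -1.56 for PRK, RCA and SBPASE, with 376 genes higher (764 over the whole span). Without 1 array 502 to 916 genes were lower in the early window against 0 h and 74 to 274 in the late against the middle window. The 24 h rhythm was called in 2 genes as deposited, 0 with a term for the array sets (1420 at an unadjusted p under 0.05), 0 at a period of 20 h (325) and 0 at 28 h (871), and in 0 to 31 genes without 1 array. Changes of ratios between the middle and late windows had no settled direction: PRK to RCA ran from -0.18 to 0.027 (positive without 36 h) and PRK to SBPASE from -0.028 to 0.21 (-0.016 without 66 h, -0.028 without 72 h). No paired analysis was possible because no time had more than 1 array and replicate numbers only name arrays within a window. Promoter motifs were not run.

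Each time rests on 1 array, so steps, midpoints and the rise from 54 to 66 h have no error of their own. Signal above background could not be judged for single probe sets, since the table holds no detection calls.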
